A study of Mus musculus with 2 samples.

Results

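The Mir23, Mir27 and Mir24 genes form paired microRNA (miRNA) clusters, in which 3 hairpins lie in a row on chromosome 8 and their paralogues lie in a row on chromosome 13. The members are the 6 genes Mir23a, Mir27a and Mir24-2 (Mir23a cluster, chromosome 8) and Mir23b, Mir27b and Mir3074-1 (Mir23b cluster, chromosome 13), taken by symbol from the 1973 miRNA genes of the tables, and 6 of 6 had a row in both libraries. They were measured in limbs of B6NCrl mouse embryos of both sexes at embryonic day 10.5. The study holds 1 group with 2 libraries, a pool of 69 embryos (replicate 1) and a pool of 51 embryos (replicate 2), with RNA under 30 bases sequenced. No genotype, treatment or other time is compared, so every comparison is between genes or between the pools. Both pools carry the same donor identifier in the labels, and a pool shows no variation between single embryos.

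As background, miRNAs are short RNAs cut from hairpins, and they lower the output of messenger RNAs that pair with their seed, the bases from position 2 to 8. The Mir23-Mir27-Mir24 clusters are known from mouse endothelium, where miR-23 and miR-27 promote the sprouting of vessels by lowering inhibitors of that process. miR-27b is also known to lower Pax3 in mouse muscle precursors, and miR-24 to restrain apoptosis and the cell cycle. In whole limb tissue, fewer cells of a type and less RNA per cell cannot be told apart.

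The mature sequences are shown because they decide which gene a read can be given to. They were read from RefSeq (GRCm38.p6), whose table held the hairpins of all 6 members and of Mir24-1, and the seed is in capitals.
miR-23a-3p (Mir23a): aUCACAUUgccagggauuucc
miR-27a-3p (Mir27a): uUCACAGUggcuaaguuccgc
miR-27b-3p (Mir27b): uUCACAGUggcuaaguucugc
miR-24-3p (Mir24-2 and Mir24-1): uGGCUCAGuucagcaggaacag
miR-24-2-5p (Mir24-2): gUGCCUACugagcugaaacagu
miR-24-1-5p (Mir24-1): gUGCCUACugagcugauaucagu
miR-3074-5p (Mir3074-1 and Mir3074-2): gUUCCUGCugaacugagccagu
miR-27a-3p and miR-27b-3p share the seed UCACAGU and differ by 1 substitution, C19U, counted from the 5′ end of miR-27a-3p. The seed of miR-23a-3p differs from that of miR-27a-3p by U7G alone, counted from the 5′ end of miR-23a-3p, although these miRNAs come from neighbouring hairpins. miR-24-3p is the same sequence at both of its loci, and its seed was shared with 4 other mature sequences of the table. The 5p arms of Mir24-2 and Mir24-1 share their seed and first differ at A17U, counted from the 5′ end of miR-24-2-5p. miR-23b-3p is not shown.

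The members lie close together on both chromosomes (GRCm38). On chromosome 8, plus strand, the Mir23a cluster spans 404 bases, with Mir23a at 84208518 to 84208592, Mir27a at 84208672 to 84208758 and Mir24-2 at 84208815 to 84208921. No annotated gene on the same strand spans these 3 hairpins. On chromosome 13 the cluster from Mir23b to Mir24-1 spans 792 bases on the plus strand, inside the gene 2010111I01Rik (Aopep in RefSeq, an aminopeptidase gene). Mir23b (63300484 to 63300557) is intronic in that gene. Mir27b (63300712 to 63300784) lies within an exon of 1 transcript annotated for nonsense-mediated decay, and Mir24-1 (63301208 to 63301275) also overlaps annotated exons. The gene Fancc spans the same region on the opposite strand.

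Mir24-1 had no row of its own among the genes analysed here. The row at its locus is Mir3074-1 (63301199 to 63301283), a hairpin on the minus strand that covers all 68 bases of Mir24-1 in the reverse direction. The sense counts of Mir3074-1 therefore belong to the minus strand, and its antisense counts stand for Mir24-1 on the plus strand, which is called the Mir24-1 locus below.

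The paralogous hairpins differ in how much of them a short read can place. The hairpins below show it, with the longest stretch that each shares with its paralogue in capitals.
Mir23a: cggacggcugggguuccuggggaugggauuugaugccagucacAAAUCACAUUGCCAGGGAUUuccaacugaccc
Mir27a: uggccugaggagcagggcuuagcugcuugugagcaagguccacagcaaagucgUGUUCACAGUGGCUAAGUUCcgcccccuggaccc
Mir27b: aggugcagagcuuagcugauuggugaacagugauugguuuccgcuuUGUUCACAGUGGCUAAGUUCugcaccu
Mir24-2: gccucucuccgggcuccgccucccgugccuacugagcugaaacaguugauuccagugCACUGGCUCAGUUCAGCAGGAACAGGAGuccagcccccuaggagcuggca
Mir24-1: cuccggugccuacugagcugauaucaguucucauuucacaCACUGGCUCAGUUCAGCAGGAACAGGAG
Mir23a and Mir23b share a run of 20 bases, Mir27a and Mir27b share a run of 20 bases, and Mir24-2 and Mir24-1 share a run of 28 bases. The run of 28 bases holds the whole of miR-24-3p, so a full-length read of it matches both loci and would be counted at neither. For miR-23a-3p, miR-27a-3p and miR-27b-3p the first 19 bases were found at 1 hairpin locus among the 1005 hairpins of the table and the first 18 at more than 1. Only exact matches within hairpins were looked up. Matches elsewhere in the genome, or with mismatches, were not tested. At a length of 22 bases, 54 of 54 windows of Mir23a, 66 of 66 of Mir27a, 53 of 53 of Mir23b and 52 of 52 of Mir27b were found at 1 locus. For Mir24-2 the number was 77 of 86, for Mir24-1 40 of 47 and for Mir3074-1 55 of 64. Of all 1005 hairpins, 11.3% had at least 1 window of 22 bases found elsewhere. The counts of Mir24-2 and the Mir24-1 locus therefore come from reads that lie at least partly outside the shared stretch and give no level of miR-24-3p.

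**Figure D1:**
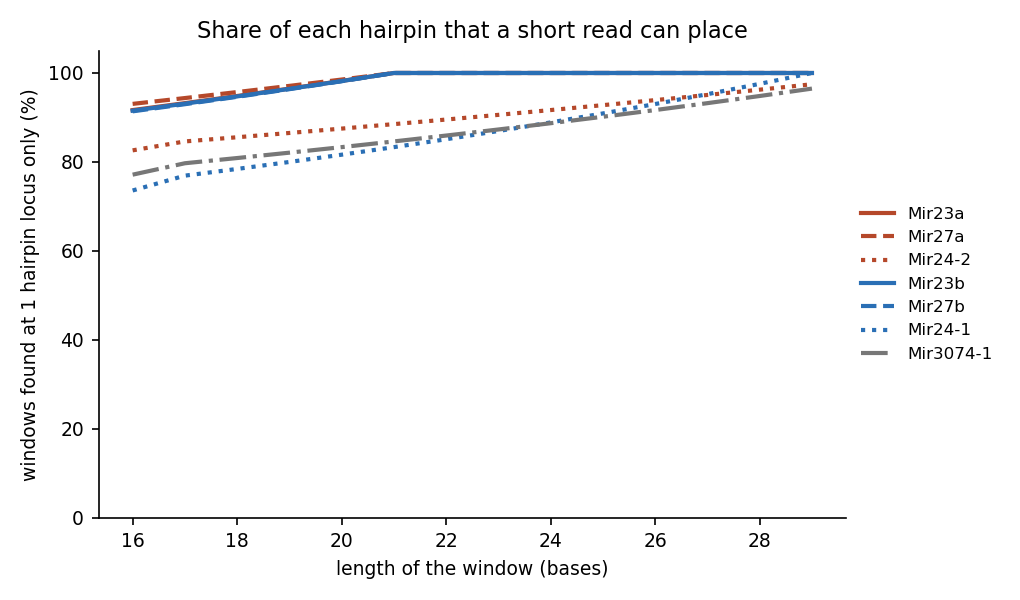
Share of the windows of each hairpin (y axis, percent) that were found at 1 locus among the RefSeq miRNA hairpins, against the length of the window in bases (x axis), with the Mir23a cluster in red, the Mir23b cluster in blue and Mir3074-1 in grey. Mir23a, Mir27a, Mir23b and Mir27b reach 100% at 21 bases, and Mir24-2, Mir24-1 and Mir3074-1 stay below it at 22 bases.

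Sense counts in genes totalled 3581672 in replicate 1 and 3576482 in replicate 2, and CPM are counts per 1000000 of these totals. The libraries were less alike as a whole: replicate 1 held 10064833 reads, of which 32.3% were unmapped, and replicate 2 held 7218612, of which 18.6% were unmapped. Marker miRNA genes are given as a description beside the tissue label, which they cannot test because no other tissue was measured. Mir10a, Mir10b and Mir196b, listed for limb position, summed to 172192 ± 11119 CPM. The genes listed for limb mesenchyme summed to 20469 ± 3340 CPM (SD, n = 2 each), of which Mir214 had 18552 CPM. Markers of other cell types were also found: ectoderm genes summed to 8983 ± 425 CPM, leukocyte genes to 669 ± 83.9 CPM, erythroid genes to 352 ± 139.5 CPM (451 in replicate 1 and 254 in replicate 2) and the skeletal muscle genes Mir206 and Mir133b to 66.4 ± 54.4 CPM. Endothelial and smooth muscle genes are given with the vascular list, and the part of these cell types in the members' reads was not tested. All intervals are exact 95% binomial intervals and cover counting error only, since PCR copies are not independent molecules. No p-value is given, because an exact sign-flip test over 2 libraries (two-sided) cannot go below 0.5. Whether the libraries were prepared together is not given in the sources used here, and their SD may hold technical as well as biological spread.

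In the limb the Mir23a cluster gave fewer counted reads than the Mir23b cluster, whose reads were 2.89-fold those of the Mir23a cluster. Most counted reads of both clusters came from the Mir23 hairpins. Full-length miR-24-3p reads, which match both clusters, would be in neither total. The Mir23a cluster held 5495 CPM in replicate 1 and 4461 CPM in replicate 2, and the Mir23b cluster, with the Mir24-1 locus, held 16898 and 12130 CPM. All 6 members reached at least 10 sense counts in both libraries, as did 17.6% of all 1973 genes. Together the 6 members took 2.24% of all sense counts in replicate 1 and 1.67% in replicate 2.

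The Mir23 genes, whose miRNAs share the role in vessel sprouting named above, had the most counts among the members. Mir23a had 18969 counts (5296 CPM) in replicate 1 and 15237 (4260 CPM) in replicate 2, a mean of 4778 ± 732 CPM (SD, n = 2). Mir23b had 55250 counts (15426 CPM) in replicate 1 and 38141 (10664 CPM) in replicate 2, a mean of 13045 ± 3367 CPM. Mir23a was lower than Mir23b in both libraries, and the values of the genes did not overlap. By mean CPM, Mir23a ranked 37 and Mir23b ranked 16 among the 1973 genes. The log2 ratio of Mir23a over Mir23b was -1.54 (-1.57 to -1.52) in replicate 1 and -1.32 (-1.35 to -1.30) in replicate 2, a mean of -1.43 ± 0.15. Mir23a thus held 27.1% ± 2.11 of the reads of the pair.

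The Mir27 genes differed between the clusters by more than the Mir23 genes did. Mir27a had 396 counts (111 CPM) in replicate 1 and 350 (97.9 CPM) in replicate 2, a mean of 104 ± 8.98 CPM. Mir27b had 4805 counts (1342 CPM) in replicate 1 and 5064 (1416 CPM) in replicate 2, a mean of 1379 ± 52.6 CPM (SD, n = 2 each). Mir27a was far below Mir27b in both pools, with no overlap. The log2 ratio of Mir27a over Mir27b was -3.60 (-3.75 to -3.45) in replicate 1 and -3.85 (-4.02 to -3.70) in replicate 2, a mean of -3.72 ± 0.18, so that Mir27a held 7.04% ± 0.813 of the reads of the pair. The log2 ratio of the Mir27 pair minus that of the Mir23 pair was -2.06 in replicate 1 and -2.53 in replicate 2, and the intervals of these ratios did not overlap in either library.

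The Mir24 pair had low counts in both clusters, and its direction was not the same in the pools. Mir24-2 had 315 counts (87.9 CPM) in replicate 1 and 367 (103 CPM) in replicate 2. The Mir24-1 locus had 467 counts (130 CPM) in replicate 1 and 178 (49.8 CPM) in replicate 2. Mir24-2 was thus lower than the Mir24-1 locus in replicate 1 and higher in replicate 2. The log2 ratio of Mir24-2 over the Mir24-1 locus was -0.57 (-0.78 to -0.36) in replicate 1 and 1.04 (0.78 to 1.31) in replicate 2, a mean of 0.24 ± 1.14. Which of these loci gave more reads was not settled. As shown by the hairpins above, full-length miR-24-3p reads would be in neither count.

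**Figure D2:**
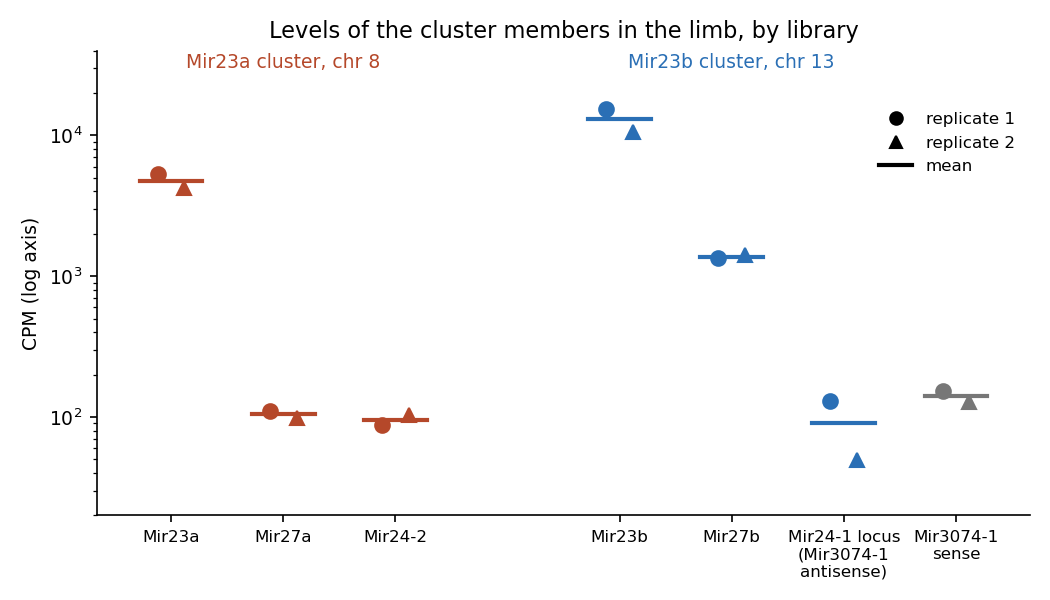
Level of each member in CPM (y axis, log scale) in replicate 1 (circles) and replicate 2 (triangles), with the mean as a line, for the Mir23a cluster in red, the Mir23b cluster in blue and Mir3074-1 sense in grey. Mir23a and Mir27a sit below Mir23b and Mir27b in both libraries, while Mir24-2 and the Mir24-1 locus overlap.

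**Figure D3:**
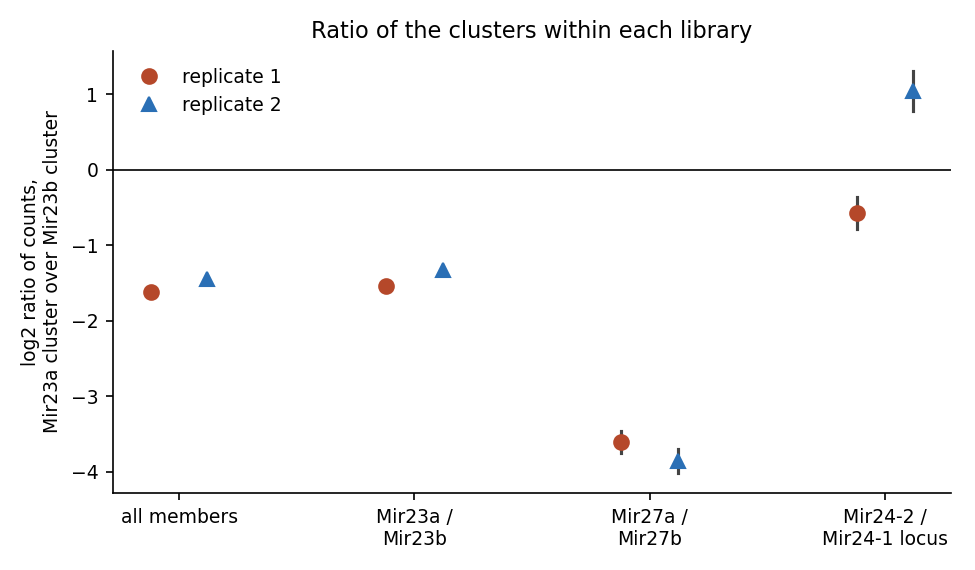
Log2 ratio of counts, Mir23a cluster over Mir23b cluster (y axis), for all members summed and for each pair, in replicate 1 (red circles) and replicate 2 (blue triangles), with exact 95% intervals as vertical lines, some of which are shorter than the symbols. The Mir23 and Mir27 pairs lie below 0 in both libraries, and the Mir24 pair lies below 0 in replicate 1 and above it in replicate 2.

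Summed over the cluster, the log2 ratio of the Mir23a cluster over the Mir23b cluster was -1.62 (-1.64 to -1.60) in replicate 1 and -1.44 (-1.47 to -1.42) in replicate 2, a mean of -1.53 ± 0.13. This sum mostly repeats the Mir23 pair, because the Mir23 hairpins dominate both clusters. In the Mir23a cluster, Mir23a gave 96.4% of the reads in replicate 1 and 95.5% in replicate 2, Mir27a gave 2.01% and 2.19%, and Mir24-2 gave 1.60% and 2.30%. In the Mir23b cluster, Mir23b gave 91.3% of the reads in replicate 1 and 87.9% in replicate 2, Mir27b gave 7.94% and 11.7%, and the Mir24-1 locus gave 0.772% and 0.410%. The share of the Mir27 hairpin was smaller in the Mir23a cluster than in the Mir23b cluster in both libraries.

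Within each cluster, neighbouring hairpins of the same strand gave unequal counts. Mir23a was above Mir27a with log2 ratios of 5.58 (interval 5.44 to 5.73) for replicate 1 and 5.44 (interval 5.29 to 5.60) for replicate 2, which is 45.5-fold on average. Mir23b was above Mir27b with log2 ratios of 3.52 (interval 3.48 to 3.57) for replicate 1 and 2.91 (interval 2.87 to 2.96) for replicate 2, which is 9.30-fold on average. The step from the Mir23 to the Mir27 hairpin was thus larger in the Mir23a cluster in both pools. Below it, Mir27a and Mir24-2 were not separated, with log2 ratios of Mir27a over Mir24-2 of 0.33 (interval 0.11 to 0.55) for replicate 1 and -0.07 (interval -0.28 to 0.15) for replicate 2, whereas Mir27b was above the Mir24-1 locus by 3.36 (3.23 to 3.50) and 4.82 (4.61 to 5.05). Full-length miR-24-3p reads would be missing from the counts of Mir24-2 and the Mir24-1 locus, so the steps to these loci hold for counted reads only. These are ratios of reads between different sequences, and how evenly library preparation captured them was not tested.

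From high to low mean CPM the order was Mir23b, Mir23a, Mir27b, Mir3074-1 sense, Mir27a, Mir24-2 and the Mir24-1 locus. Mir23b, Mir23a and Mir27b were each separated from the next by more than the spread of the libraries. Mir3074-1 sense was above Mir27a in both libraries, by log2 ratios of 0.47 (0.28 to 0.66) and 0.39 (0.19 to 0.60), and Mir27a, Mir24-2 and the Mir24-1 locus overlapped. A read under 30 bases covers about 1 arm of a hairpin, so counts were not divided by length. Per base of hairpin, mean levels were 63.7 CPM for Mir23a, 1.20 for Mir27a, 0.890 for Mir24-2, 176 for Mir23b, 18.9 for Mir27b, 1.32 for the Mir24-1 locus and 1.66 for Mir3074-1 sense. On this scale the first 4 genes kept their order. The Mir24-1 locus was divided by the 68 bases of Mir24-1, although its reads were counted over the 85 bases of Mir3074-1. The longer length would lower its value, so its order against Mir27a on this scale was not settled.

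The reads in the Mir3074-1 row came from both strands, unlike those of the other members. Mir3074-1 had 548 sense and 467 antisense counts in replicate 1, and 460 sense and 178 antisense counts in replicate 2. Sense reads made up 54.0% (50.9% to 57.1%) of both strands in replicate 1 and 72.1% (68.4% to 75.5%) in replicate 2, a mean of 63.0% ± 12.8. In replicate 1 the CPM of the sense reads was 1.19-fold that in replicate 2, and the CPM of the antisense reads, which stand for Mir24-1, was 2.61-fold. The other members were read almost wholly on the sense strand. Mir23a and Mir23b had 0 antisense counts in both libraries, and at these depths 0 counts leave room for 3 counts, or 0.838 CPM (replicate 1) and 0.839 CPM (replicate 2). Mir27a had 1 and 0 antisense counts in replicates 1 and 2, Mir24-2 had 2 and 1, and Mir27b had 2 and 0. In both libraries, over 20% of reads were antisense at 1 of 6 members (Mir3074-1) and at 3.06% of the 359 genes with at least 10 reads of either strand in both libraries. The antisense counts at Mir24-2 are where reads of Mir3074-2, its opposite hairpin (84208825 to 84208907 on chromosome 8), would fall, so uniquely placed reads of the minus strand were found on chromosome 13 and barely on chromosome 8. miR-3074-5p is the same sequence at both loci, as printed above, and full-length reads of it would be counted at neither.

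**Figure D4:**
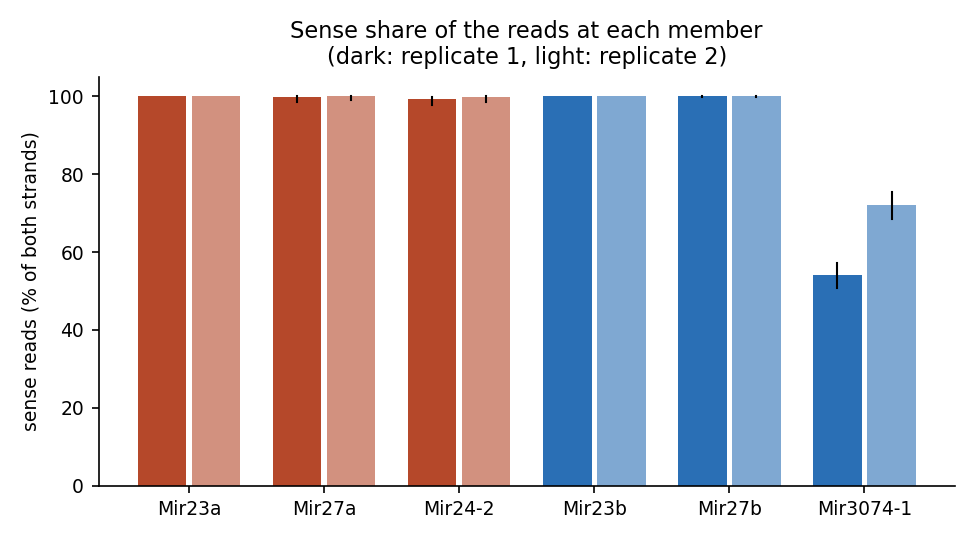
Sense reads as a percentage of the reads of both strands (y axis) at each member, with replicate 1 dark, replicate 2 light, the Mir23a cluster in red, the Mir23b cluster in blue and exact 95% intervals as vertical lines. Mir3074-1, opposite Mir24-1, stands at 54.0% in replicate 1 and 72.1% in replicate 2, and the others lie at 99.4% or above.

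No member differed over 2-fold between the pools. This was 0 of 6 members, against 10.8% of the 250 genes that averaged 100 counts or more, and 6 genes are too few to set the members apart from that share. The share was taken on CPM with no shift removed, with 24 genes higher and 3 lower in replicate 1. Since the log2 ratio of replicate 1 over replicate 2 had a median of 0.27 over the 250 genes, the values below are given relative to it. Mir23a lay at 0.04, Mir27a at -0.10, Mir24-2 at -0.49, Mir23b at 0.26, Mir27b at -0.35 and Mir3074-1 at -0.02. Mir23b was thus relatively high and Mir27b relatively low in replicate 1, which is the change in their shares given above. The SD of the ratio over the 250 genes was 0.66, larger than each of these values. The Mir24-1 locus, which is not a gene row, lay at 1.11, and 95.6% of the 250 genes had a lower ratio. Its counts are antisense, while the ratios of the 250 genes are of sense counts. Antisense counts over all genes were also higher in replicate 1 (84234) than in replicate 2 (61736), so the 95.6% is not a comparison of like counts.

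To set these ratios beside other paralogues, 12 pairs of miRNA genes with different mature sequences were listed. The size of the log2 ratio had a median of 1.57 over these pairs, and it ranged from 0.11 for Mir99a over Mir99b to 11.3 for Mir26a-1 over Mir26b, where the miR-26a reads shared with a further locus would be counted at none. The Mir23 pair, at 1.43, was exceeded by 7 of 12 pairs, and the Mir27 pair, at 3.72, by 4 of 12. Of those 4, Mir17 over Mir106a, Mir18 over Mir18b and Mir20a over Mir20b come from the same paired clusters. They are therefore not separate comparisons, and the remaining pair is Mir26a-1 over Mir26b. In 11 of 12 pairs the sign was the same in both libraries, as it was for the Mir23 and Mir27 pairs.

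The vascular list was measured because endothelium is a known site of these clusters. Mir126a, the endothelial miRNA gene, had 26707 CPM in replicate 1 and 23683 CPM in replicate 2. The log2 ratio of the Mir23a cluster over Mir126a was -2.28 in replicate 1 and -2.41 in replicate 2, and that of the Mir23b cluster over Mir126a was -0.66 and -0.97. Both clusters were below Mir126a in both libraries. Mir143 and Mir145a of vascular smooth muscle had 4993 ± 187 and 74.5 ± 10.5 CPM. The last genes of the vascular list, Mir221 and Mir222, had 32.5 ± 8.07 and 23.3 ± 4.12 CPM (SD, n = 2 each). The members thus spanned the range from below Mir143 to above it, with Mir23a at nearly its level. Which cells of the limb gave the reads of either cluster was not tested.

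The genes nearest to each member in log2 CPM over the 2 libraries are given as a description, with no statement on shared function or control, since 2 libraries hold little pattern. Mir296 and Mir351 lay nearest to Mir23a, at distances of 0.04 each, and Mir1981 and Mir328 nearest to Mir27a, at 0.07 and 0.12. Mir701 and Mir331 were nearest to Mir24-2 (0.12 and 0.16), and Mir503 and Mir484 to Mir27b (0.09 and 0.16). Mir496a and Mir345 were nearest to Mir3074-1 (0.08 and 0.10). Mir23b had no gene as close: Mir18 and Mir93 followed at 0.36 and 0.65.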

How the data were processed

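Per the deposited readme texts, small-RNA reads were aligned to mm10 and counted over GENCODE M4, with 1 alignment per library. The authors deposited raw read counts per miRNA gene, in columns for both strands, sense and antisense (roles inferred from the values). Which aligner, counter and trimming were used is not given in the sources used here. Rows for unmapped, multimapping, unassigned and ambiguous reads stayed out of totals. Reads placed at several loci, 32.3% of mapped reads in replicate 1 and 31.2% in replicate 2, have their own row and so were taken as counted at no gene. Names and coordinates (1-based) came from GENCODE M21 (GRCm38), in which 1894 of 1973 identifiers matched. For Mir23b, Mir27b and Mir3074-1 the identifier's version differs from the tables', so the counted interval may differ slightly.

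CPM used the sense counts of all genes. Log2 ratios carry a prior count of 1, and fold values are 2 to the mean log2 ratio. The named genes are the members, the 2 genes nearest to each, the vascular list and the tissue markers. Of the paralogue list, the extremes and the pairs that exceeded the Mir27 pair are named. Windows of each hairpin were looked up in all RefSeq hairpins on both strands, and overlapping matches at the same locus counted once. Members and lists were chosen with earlier results of these data known. Alternatives used edgeR 4.0.16 and DESeq2 1.42.0 (R 4.3.3) for scaling. Other steps used Python 3.11.15, numpy 2.4.6, pandas 2.3.3, scipy 1.17.1 and Biopython 1.88. The intervals of ratios were tested on simulated counts drawn independently, which hold counting error only and no spread between libraries.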

Additional observations from a re-analysis of the deposited data

How the results depend on the processing

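No paired analysis was possible because the study holds 1 group. Leaving out each replicate in turn, the log2 ratio of the Mir23a cluster over the Mir23b cluster ranged from -1.62 to -1.44, that of Mir23a over Mir23b from -1.54 to -1.32, that of Mir27a over Mir27b from -3.85 to -3.60, that of Mir24-2 over the Mir24-1 locus from -0.57 to 1.04, and the sense share of Mir3074-1 from 54.0% to 72.1%. The cluster ratio lay between -1.57 and -1.43 under the other alternatives, among them leaving out the Mir24 pair (-1.55). Counts divided by hairpin length, an alternative chosen after seeing the data, moved the Mir27 ratio to -3.97 and the Mir24 ratio to -0.41. That Mir24 ratio used the 68 bases of Mir24-1, not the 85 of the counted Mir3074-1 hairpin, and the longer length would make it less negative. For the Mir24 pair, both strands together gave -1.23, because the sense reads of Mir3074-1 then join the locus, and Mir3074-1 sense in place of antisense gave -0.56. Between the libraries, replicate 1 over replicate 2, Mir27a changed from 0.18 to -0.11 with TMM factors and -0.10 with DESeq2 size factors, and Mir3074-1 from 0.25 to -0.039 and -0.026; these scalings shift all genes. Genes over 2-fold between the libraries numbered 27, against 54 at 10 or more counts on average and 206 with no filter. Of the 250 genes behind the 27, 8% were over 2-fold with TMM factors and 8% with DESeq2 size factors, against 10.8% with CPM. Levels in CPM depend on the total: Mir23a had 1998 CPM over all reads of the library and 5794 without the most abundant gene in the total. The counting intervals of the libraries did not overlap for the cluster ratio, the Mir23 pair, the Mir24 pair and the sense share of Mir3074-1. The spread between the libraries, not depth, thus limits those values. For the Mir27 pair the intervals overlapped.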

Other observations

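The nearest miRNA genes upstream of the Mir23a cluster on chromosome 8 are Mir181d and Mir181c, on the opposite strand, with 29556 bases between Mir181c and Mir23a. Mir181c had 3308 CPM in replicate 1 and 4838 CPM in replicate 2, and Mir181d had 3937 and 5004 CPM. Both had more CPM in replicate 2. Mir23a, at 5296 CPM in replicate 1 and 4260 CPM in replicate 2, had more CPM in replicate 1. Its log2 ratio (replicate 1 over replicate 2) was 0.31, and 0.04 once the median of the 250 genes above, 0.27, was subtracted. The Mir181 genes are given in CPM only, without this subtraction. The difference between these genes was not tested.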
